A study of Mus musculus with 2 samples.

Results

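Dopamine is made, packaged, recovered and broken down by a small set of proteins, and the transcripts of 9 genes for these steps were followed in the striatum of mice with and without the dopamine D2 receptor gene Drd2. The 9 genes, taken from a fixed list, were Th, Ddc, Slc6a3, Slc18a2, Maoa, Maob, Gch1, Spr and Qdpr, out of 18193 genes measured. The platform annotation paired 13 probe sets with 1 of these genes alone and none with a member together with another gene. In all, 5 genes had a single probe set and 4 had more than 1.

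Striatal tissue, cut out by hand from untreated C57BL/6 males aged 2 months, was compared between 1 wild type array and 1 Drd2-/- array. The sources used here do not say whether each array held 1 animal or a pool, or how the Drd2-/- allele was made. With 1 array per genotype no value has a replicate error and no difference could be tested, so every comparison below is a ratio of 2 arrays. Ratios are Drd2-/- over wild type on the log2 scale, from signals in linear array units, and a gene with several probe sets is represented by the one with the highest mean log2 signal.

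Drd2 itself read 3234.8 units and was called present on the wild type array, against 27.4 units and absent on the Drd2-/- array. The authors' deposited comparison table carries the same signals under the opposite genotype names at all 45101 probe sets. Directions here follow the sample labels, which put the array with Drd2 called absent under Drd2-/-. The names in that table would put the array reading 3234.8 units of Drd2 under Drd2-/-, and every sign would then turn. All 13 measured striatal projection neuron markers were detected on these arrays, where 12588 of all 18193 genes were. Their median ratio was -0.06, and their signals summed to 145110 units in wild type against 145668 units in Drd2-/-. Of the 13, 10 had ratios below 0 (4 after quantile normalization), where 57.1% of all detected genes were below 0. Pdyn was lowest at -0.82, or 1.77-fold lower, and the authors' deposited table gives it -0.5, called unchanged. The share of probe sets called present was 57.9% in wild type and 58.7% in Drd2-/-.

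As background, tyrosine hydroxylase (Th) makes L-DOPA from tyrosine, and aromatic amino acid decarboxylase (Ddc) turns L-DOPA into dopamine. The vesicular monoamine transporter (Slc18a2) loads dopamine into synaptic vesicles, the dopamine transporter (Slc6a3) returns it to the nerve ending, and the monoamine oxidases (Maoa, Maob) break it down. Tyrosine hydroxylase needs the cofactor tetrahydrobiopterin, known as BH4, which GTP cyclohydrolase (Gch1) and sepiapterin reductase (Spr) help to make and dihydropteridine reductase (Qdpr) recycles. The cell bodies of the dopamine neurons lie in the midbrain and send only their axons to the striatum, so striatal tissue is not where most of the Th, Slc6a3 and Slc18a2 message is normally found.

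RefSeq (build GRCm38.p6) gave upstream sequence for 8 of the 9 genes, and Maob was not matched. The 250 bases before the transcription start are shown for Slc18a2 and Spr, the genes with the highest and the lowest ratio, for Th, and for the first of 2 Ddc starts. Slc18a2 lies at chr19:59260628-59260877 on the plus strand, Spr at chr6:85137765-85138014 on the minus strand, Th at chr7:142899996-142900245 on the minus strand and Ddc at chr11:11898145-11898394 on the minus strand. Capitals mark 3 motifs searched on both strands: the cAMP response element TGACGTCA, the Nr4a response element AAAGGTCA and the GC box GGGCGG.
Slc18a2: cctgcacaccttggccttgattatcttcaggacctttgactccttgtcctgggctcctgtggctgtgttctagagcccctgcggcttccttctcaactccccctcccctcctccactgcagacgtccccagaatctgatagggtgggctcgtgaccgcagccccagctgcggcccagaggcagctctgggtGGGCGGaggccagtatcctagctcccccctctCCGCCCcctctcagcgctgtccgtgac
Spr: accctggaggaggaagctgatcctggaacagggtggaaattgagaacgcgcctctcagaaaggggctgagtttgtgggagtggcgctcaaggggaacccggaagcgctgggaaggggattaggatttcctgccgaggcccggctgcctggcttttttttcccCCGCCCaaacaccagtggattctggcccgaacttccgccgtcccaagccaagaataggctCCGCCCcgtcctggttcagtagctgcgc
Th: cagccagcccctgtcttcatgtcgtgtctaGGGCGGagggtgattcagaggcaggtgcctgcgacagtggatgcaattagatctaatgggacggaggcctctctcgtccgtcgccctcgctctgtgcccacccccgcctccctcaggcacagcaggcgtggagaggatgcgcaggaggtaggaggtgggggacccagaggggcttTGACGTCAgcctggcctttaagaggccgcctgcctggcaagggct
Ddc: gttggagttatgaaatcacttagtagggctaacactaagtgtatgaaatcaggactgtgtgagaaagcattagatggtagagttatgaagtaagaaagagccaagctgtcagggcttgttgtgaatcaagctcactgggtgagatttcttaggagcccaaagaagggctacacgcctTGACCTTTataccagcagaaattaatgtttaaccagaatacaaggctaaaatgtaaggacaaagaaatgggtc

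The cAMP response element was found in the Th window alone among the 9 windows of the 8 genes, from 45 to 38 bases before the start, and in 1.55% of all 32851 windows of the same length. The Nr4a response element was found in the first Ddc window alone, on the opposite strand from 73 to 66 bases before the start, and in 1.34% of all windows. GC boxes were found in the windows of Th, Slc6a3, Slc18a2, Maoa, Gch1, Spr and Qdpr and in 32.7% of all windows. The core TGACG, which the full cAMP response element contains, also occurred in the windows of Maoa and Gch1 and in 17.8% of all windows. These matches describe the letters in these windows and say nothing of binding.

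Of the 9 genes, 8 were detected, meaning that the representative probe set was called present on at least 1 array, and all 8 were present on both. Of the 8, 2 were at least 1.5-fold apart, Slc18a2 higher and Spr lower in Drd2-/-, where 12.5% of all 12588 detected genes were as far apart. By direction, 9.17% of detected genes were 1.5-fold higher and 3.38% 1.5-fold lower, and after quantile normalization the split was 6.17% and 7.51%. Slc18a2 alone was 2-fold apart, being higher in Drd2-/-, where 3.94% of detected genes were 2-fold apart. By direction 3.12% of detected genes were 2-fold higher and 0.818% 2-fold lower, or 1.76% and 1.93% after quantile normalization. The other 6 lay between -0.33 and 0.36. The median over the 8 genes was -0.06, and that of all detected genes was also -0.06, with quartiles of -0.24 and 0.19.

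**Figure D1:**
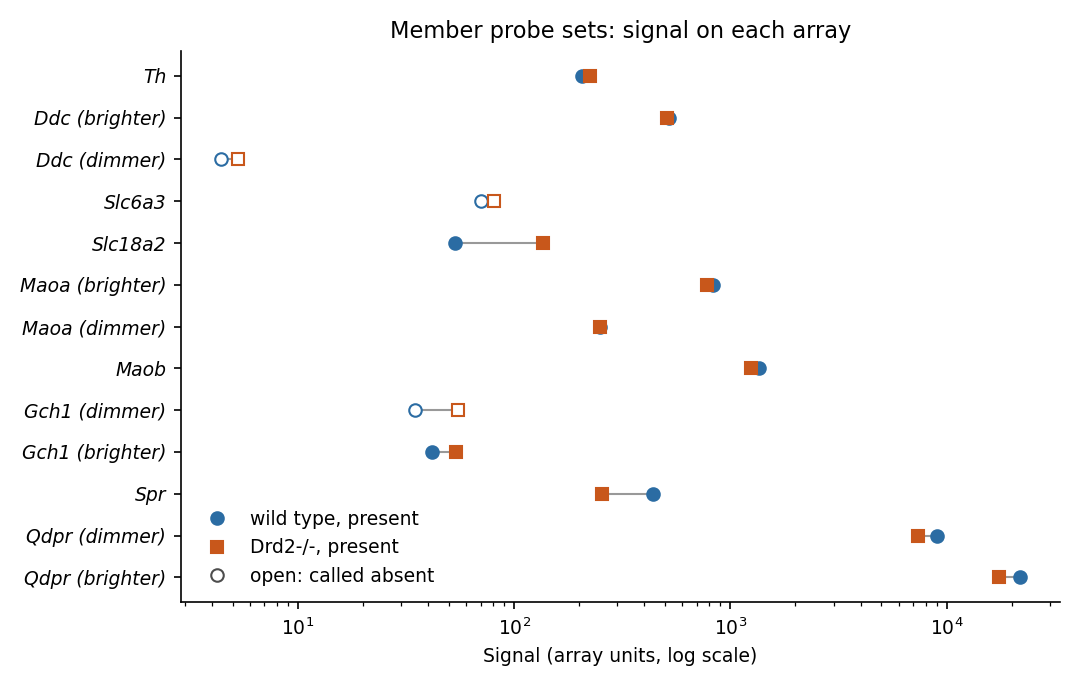
Signal of each probe set of the 9 genes in array units on a log axis, with wild type as circles and Drd2-/- as squares, and open symbols for a call of absent. The widest gaps between the arrays are those of Slc18a2 (53.1 and 136.5 units) and Spr (440.2 and 256.2 units), while the symbols of Th, Ddc, Maoa and Maob nearly coincide.

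**Figure D2:**
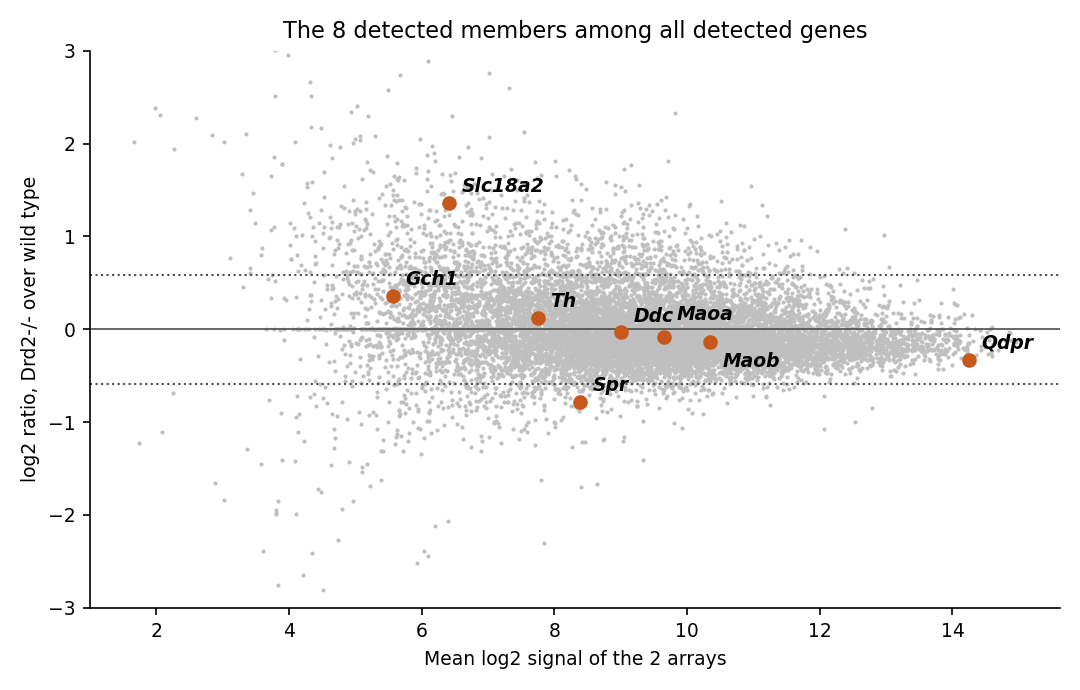
Ratio (log2, Drd2-/- over wild type) against mean log2 signal for detected genes, in grey, with the 8 detected genes of dopamine handling in orange and dotted lines at 1.5-fold. Slc18a2 lies above the upper line at 1.36 and Spr below the lower line at -0.78. The axis leaves out 6 genes beyond 3 in either direction.

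The synthesis enzymes Th and Ddc read nearly the same on both arrays. Th gave 206.1 units in wild type against 224.5 units in Drd2-/-, present on both, a ratio of 0.12 that turned to -0.10 after quantile normalization. The authors' deposited table gives Th a log ratio of 0 with limits of -0.2 and 0.2, called unchanged. Ddc gave 520.4 units in wild type against 510.1 units in Drd2-/-, a ratio of -0.03 that turned to 0.03 when the median of all ratios was set to 0. Its second probe set was called absent on both arrays, at 4.4 and 5.3 units.

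Nr4a2, a nuclear receptor needed for midbrain dopamine neurons and also an activity-dependent gene, read 509.9 units in wild type against 103.1 units in Drd2-/-, a ratio of -2.31, and its 3 other detected probe sets gave -1.88 to -1.14. Over the alternatives run, Th ranged from -0.10 to 0.19 and Ddc from -0.09 to 0.03.

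The dopamine transporter gene Slc6a3 was called absent on both arrays, at 70.3 units in wild type against 81.1 units in Drd2-/-, so no ratio is given. Of 14 measured markers of midbrain dopamine neurons, 5 were detected (Nr4a2, Aldh1a1, Ret, Sncg and En2), with a median of -0.17 and summed signals of 2911 units in wild type against 2266 units in Drd2-/-. The lower sum is carried by Nr4a2 and by Aldh1a1 at -0.17. Without both, the other 3 summed to 214.8 and 217.3 units, with Ret at -0.38, Sncg at 0.15 and En2 at 0.21. Over all 14 without the detection filter the median turned to 0.28. The other 9, among them the dopamine neuron regulators Pitx3, Lmx1a and Foxa2 and the nicotinic receptor subunit Chrna6, were called present on neither array.

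The vesicular transporter gene Slc18a2 had the highest ratio of the 8. Its only probe set read 53.1 units in wild type against 136.5 units in Drd2-/-, present on both, which is 2.57-fold higher in Drd2-/- (log2 ratio 1.36). The authors' deposited table gives it a smaller log ratio of 0.9 with limits of 0.6 and 1.1 and a call of increased, a call that 8.79% of detected genes share. The probe set is dim: in the dimmest of 4 equal groups of detected genes by signal, 4% of 3147 genes were at least as much higher as Slc18a2, and 8.77% were 2-fold higher. With 32 units added to both arrays the ratio was 0.99, and after quantile normalization 0.98, both under 2-fold.

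**Figure D3:**
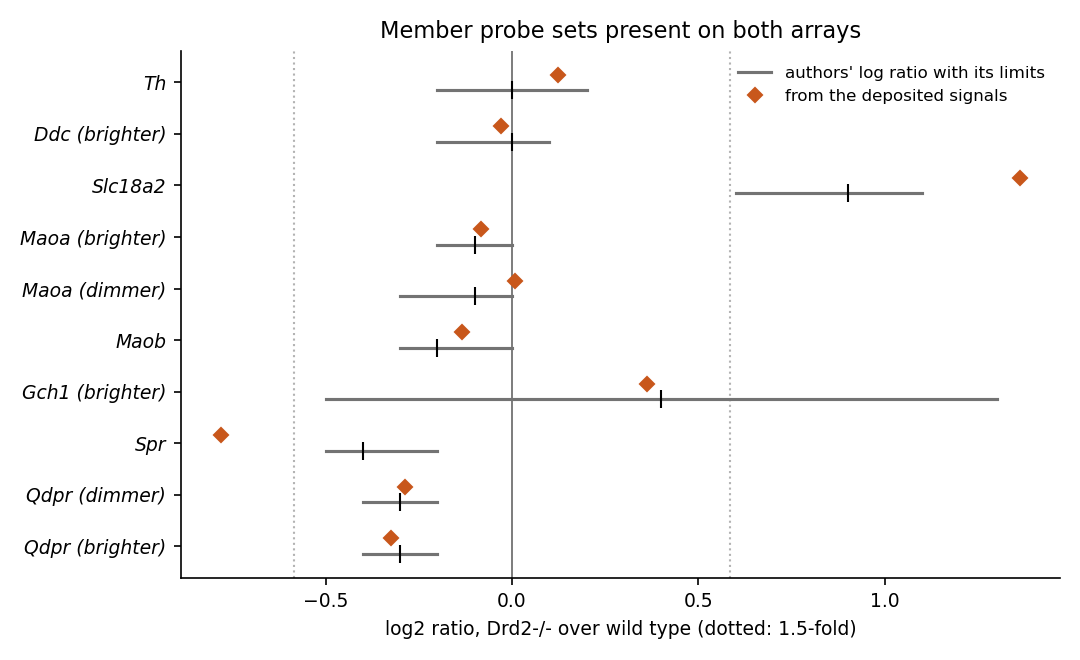
Log2 ratio of the 10 probe sets of the 9 genes that were present on both arrays, from the deposited signals (diamonds) and from the authors' deposited table with signs turned (ticks with its limits as bars), with dotted lines at 1.5-fold. The diamonds of Slc18a2 and Spr lie outside the authors' limits, farther from 0, that of the dimmer Maoa probe set lies just above its upper limit of 0, and both probe sets of Qdpr agree near -0.3.

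Which gene this probe set measures is not settled by the sources. The platform annotation pairs it with Slc18a2, but the description in the authors' deposited table places it in the transcript cluster of Pdzd8, which encodes a protein of contact sites between organelles. In RefSeq the genes are direct neighbours on chromosome 19, on opposite strands, with no protein-coding gene between them. All 4 probe sets that the annotation pairs with Pdzd8 were also higher in Drd2-/-. They read 1281.9 and 1621.6 units (ratio 0.34), 174.3 and 278.1 units (0.67), and 161.8 and 309.5 units (0.94) in wild type and Drd2-/- respectively. The remaining one was absent in wild type at 59.5 units and present in Drd2-/- at 109.8 units, at least 1.85-fold higher. The description in the authors' deposited table likens that last probe set to the rat vesicular monoamine transporter, so the annotation and the descriptions are crossed at this locus. The authors' deposited table calls all 4 increased, with log ratios of 0.3, 0.4, 0.9 and 1.3 in the same order.

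**Figure D4:**
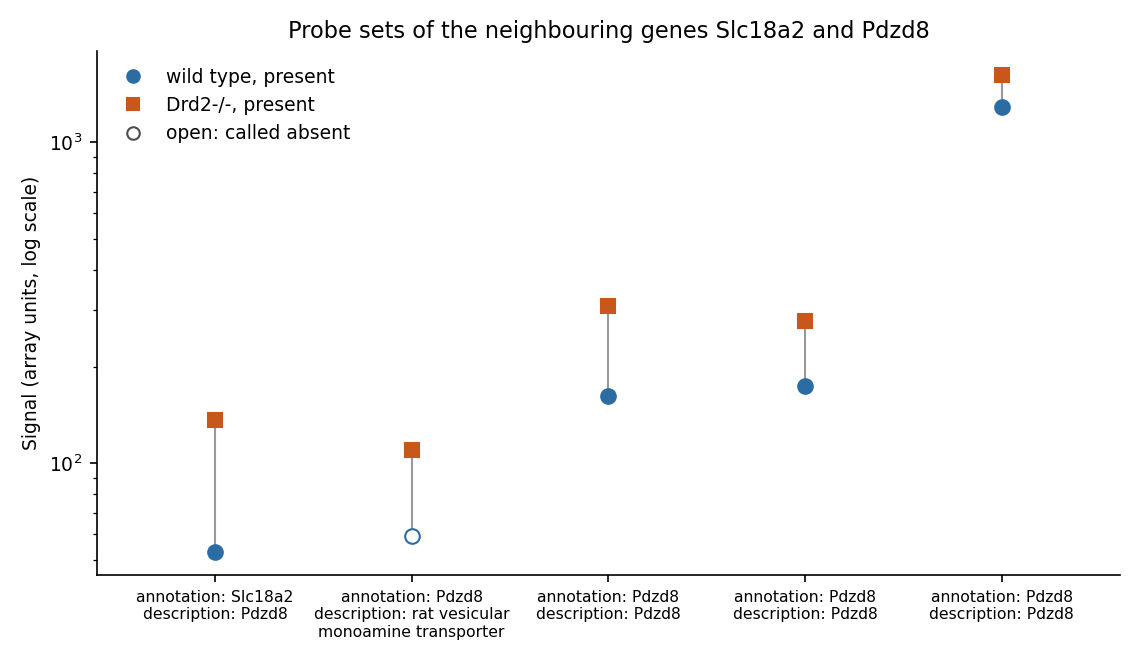
Signals in array units on a log axis for the probe set annotated as Slc18a2 and the 4 annotated as Pdzd8, with wild type as circles, Drd2-/- as squares and an open circle for a call of absent; the labels give the gene of the annotation and of the deposited description. All 5 probe sets are higher in Drd2-/-, including both that either source ties to the vesicular monoamine transporter.

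Both probe sets that either source ties to the vesicular transporter were thus higher in Drd2-/-, at 53.1 to 136.5 and 59.5 to 109.8 units. Among markers of noradrenaline and serotonin neurons, which also use this transporter, 3 of 7 were detected, with summed signals of 330.0 units in wild type against 437.0 units in Drd2-/-. Without Slc6a2, which was detected on the Drd2-/- array alone, the sums were 284.8 and 333.1 units, and Gata2 is the 1 gene of the list present on both arrays. Of the 3, Gata2 read 0.30, Tph2 was marginal in wild type at 38.7 units and present in Drd2-/- at 30.0 units, and the noradrenaline transporter gene Slc6a2 was absent in wild type at 45.2 units and present in Drd2-/- at 103.9 units, at least 2.30-fold higher. For Slc6a2 the authors' deposited table has 0.9 with limits of 0.1 and 1.7, called unchanged. For Gata2 it has 0.1 with limits of -0.3 and 0.4, also called unchanged, while the other detected Gata2 probe set read 0.39 from the signals. Slc6a2 is also dim, and in the dimmest signal group 8.77% of genes were 2-fold higher against 2.67% lower. The noradrenaline-synthesizing enzyme gene Dbh and the serotonin transporter gene Slc6a4 were called present on neither array. These are message signals and say nothing of transporter protein in axons. The part of these neurons in the Slc18a2 value was not tested.

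Of the other monoamine synthesis and transport genes, 4 of 11 measured were detected. The plasma membrane monoamine transporter gene Slc29a4 read 492.5 units in wild type against 681.5 units in Drd2-/-, a ratio of 0.47, but its other detected probe set gave -0.15. The vesicular polyamine transporter gene Slc18b1 read -0.08.

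Spr and Pts had the lowest ratios of the detected pathway genes, while the ratios of the other BH4 genes lay between -0.33 and 0.36. Spr, which completes BH4 synthesis, read 440.2 units in wild type against 256.2 units in Drd2-/- by its only probe set, present on both, and was 1.72-fold lower in Drd2-/- (log2 ratio -0.78). Among the 3147 detected genes of its signal group, the second dimmest of 4, 1.02% were at least as much lower and 3.11% were 1.5-fold lower. The authors' deposited table gives Spr a smaller log ratio of -0.4 with limits of -0.5 and -0.2, called unchanged, so in that table it was under 1.5-fold.

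Qdpr, which regenerates BH4 after each round of hydroxylation, was lower by both of its probe sets. The brighter read 21809.2 units in wild type against 17404.6 units in Drd2-/- (ratio -0.33), and the dimmer read 9025.7 and 7401.9 units (-0.29). Over the alternatives run, Qdpr ranged from -0.33 to -0.19, the latter after quantile normalization. The authors' deposited table gives both probe sets -0.3 with limits of -0.4 and -0.2, called decreased, and 5.67% of detected genes carry that call. In the brightest of the 4 signal groups, which holds Qdpr, the median was -0.14 and 13.7% of genes were at least as much lower as Qdpr. Oligodendrocyte markers, of which all 11 measured were detected, had a median of -0.14 and summed signals of 101467 units in wild type against 90255 units in Drd2-/-. Their median turned to 0.04 after quantile normalization and was -0.01 after intensity-dependent (lowess) centring. The part of oligodendrocytes in the Qdpr value was not tested. In such bulk tissue, fewer cells of a type and less message per cell cannot be told apart.

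Gch1, the first enzyme of BH4 synthesis, has no firm level here. The probe set made from its own reference message was called absent on both arrays, at 34.9 units in wild type against 54.9 units in Drd2-/-. The brighter one, present on both arrays at 41.7 and 53.6 units, gave a ratio of 0.36 that turned to -0.09 after quantile normalization. Its description in the authors' deposited table names another gene, 0610012G03Rik, whose 3 annotated probe sets all read lower in Drd2-/-, from -0.70 to -0.24. The authors' deposited table gives the brighter Gch1 probe set 0.4 with limits of -0.5 and 1.3, called unchanged.

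Of 5 other measured BH4 genes, 4 were detected, all with ratios below 0 (3 of 4 after intensity-dependent centring), where 57.1% of all detected genes were below 0. Their median was -0.19. Pts, the enzyme between Gch1 and Spr, read 792.2 units in wild type against 354.3 units in Drd2-/-, 2.24-fold lower (log2 ratio -1.16). The authors' deposited table gives Pts -0.9 with limits of -1.4 and -0.5, called decreased. Its other probe set was called absent on both arrays, at 28.1 units in wild type against 3.2 units in Drd2-/-, and has -3.4 with limits of -5.4 and -1.4 in the authors' deposited table, called unchanged. Pts lies on chromosome 9 like Drd2, with 4 protein-coding genes between them in RefSeq, whereas none of the 9 genes of the list lies on that chromosome. The sources used here do not state the strain origin of the DNA beside the deleted gene, and its part in the Pts value was not tested. The recycling enzyme gene Pcbd2 read -0.27, and its paralog Pcbd1 was present in wild type at 281.0 units and marginal in Drd2-/- at 258.6 units, which bounds its ratio at -0.12. The carbonyl reductase gene Cbr1, which can act beside Spr, read -0.09. Gchfr, the feedback regulator of Gch1, was called present on neither array.

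The cortical neuron markers were mixed in direction. Of 11 measured, 9 were detected, 6 with ratios below 0 like Spr and Pts and 3 above 0. The 6 were the dimmer ones, the brightest of them being Nrn1 at 607.3 units in wild type. The dimmest of the 3 was Mef2c at 3100.4 units in wild type. The median of the 9 was -0.82 (-0.33 over all 11 without the detection filter), and 5 were at least 1.5-fold lower in Drd2-/-, where 3.38% of all detected genes were. They were led by Neurod6 at -2.51, Tbr1 at most -2.12, Nrn1 at -1.70 and Slc17a7 at -1.62. Tbr1 read 152.5 units in wild type and was called absent in Drd2-/- at 35.2 units. The authors' deposited table calls each of these genes decreased, with Tbr1 at a smaller -1.1 and wide limits of -2.7 and 0.5. The summed signal of the 9 was nevertheless 14709 units in wild type against 14679 units in Drd2-/-, since Nrgn at 0.08, Lamp5 at 0.17 and Mef2c at 0.05 supply most of it. Nr4a2, which cortical neurons also express, read -2.31, as given above. The part of cortical tissue in the values of Spr, Pts and Nr4a2 was not tested.

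The monoamine oxidase genes differed little between the arrays. Maoa read 828.1 units in wild type against 781.1 units in Drd2-/- by its brighter probe set (ratio -0.08), and 249.2 and 250.4 units by the other (0.01). Maob, the form found largely in astrocytes and serotonin neurons, read 1362.1 units in wild type against 1241.7 units in Drd2-/- (-0.13). In the authors' deposited table Maoa has a log ratio of -0.1 by both probe sets and Maob -0.2, all called unchanged. Over the alternatives Maoa ranged from -0.10 to -0.01 and Maob from -0.20 to -0.04. Among genes of similar brightness, 52.2% were at least as much lower as Maoa and 43.8% as Maob. All 12 measured astrocyte markers were detected, with a median of -0.19 and summed signals of 60143 units in wild type against 57082 units in Drd2-/-.

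The enzymes that act on the aldehyde left by the monoamine oxidases mostly read slightly lower in Drd2-/-. Of 8 measured breakdown genes beyond the monoamine oxidases, all were detected, 7 had ratios below 0 and none was 1.5-fold apart, with a median of -0.24. Between 6 and 8 of these 8 genes were below 0 in each alternative run. Of all detected genes 57.1% were below 0, and of the brightest group 72.4%. The aldehyde dehydrogenase genes ranged from -0.35 for the mitochondrial Aldh2 (2135.1 units in wild type, 1670.7 units in Drd2-/-) to -0.17 for Aldh1a1 (2185.8 and 1945.4 units), the form found in a subset of midbrain dopamine neurons. Other detected probe sets of Aldh2 ran from -0.33 to 0.42, which differ in direction. The aldehyde reductase gene Akr1a1 read -0.22, and its 3 other detected probe sets gave -0.55 to -0.20, and the sulfotransferase gene Sult1a1 read 0.07.

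**Figure D5:**
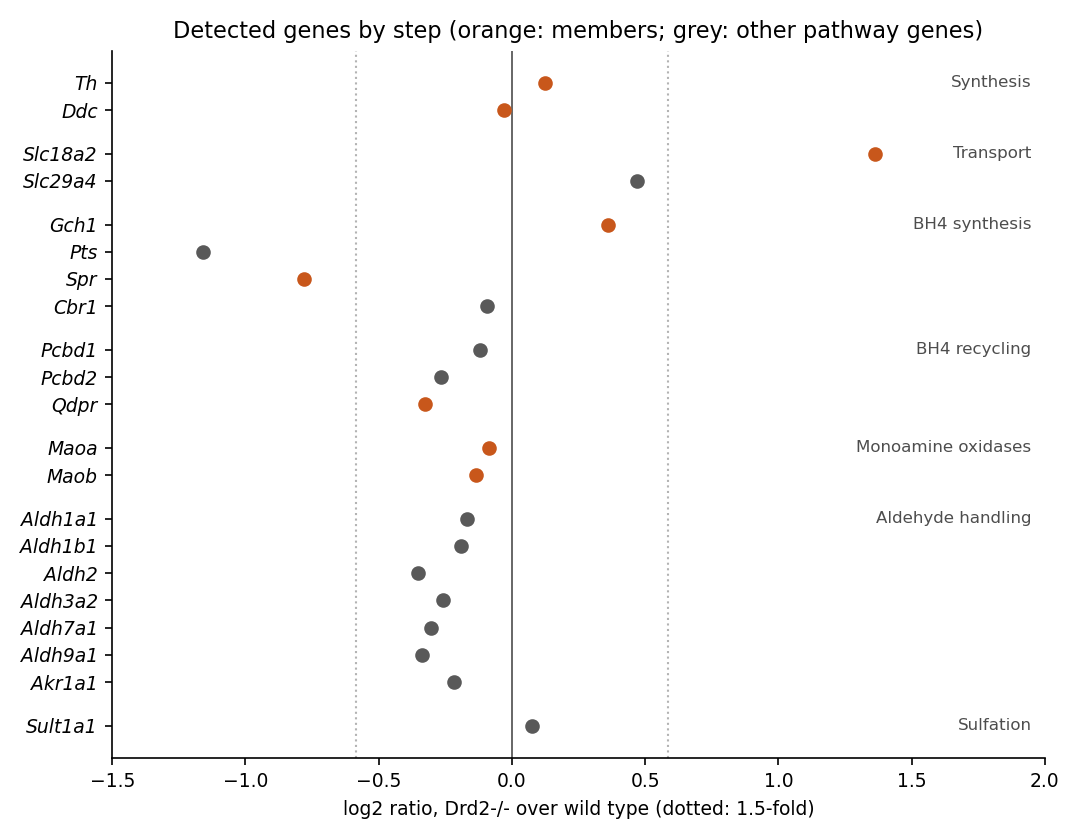
Log2 ratio (Drd2-/- over wild type) of detected genes grouped by step, with the 8 detected genes of the list in orange, other genes of the pathway in grey and dotted lines at 1.5-fold. Outside the lines lie Slc18a2 at 1.36, Spr at -0.78 and Pts at -1.16, while the monoamine oxidases and the aldehyde enzymes cluster between -0.35 and -0.08. The value of Pcbd1 is a bound. The detected genes Slc18b1, Slc6a2 and Tph2 are not drawn.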

How the data were processed

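For each array the authors deposited linear signal intensities of the probe sets, scaled array by array according to the column names; their mean without the top and bottom 2% was 500.0 on both arrays. The files, per the file headers, further hold detection p-values with calls, log2 ratios of the arrays (Signal Log Ratio) with limits, and a change call, all of which compare 2 arrays and not replicates. The sources used here name no software or settings. Calls were attached to the array with the identical signal, and the authors' log ratios were turned to the sample labels.

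Of 45101 probe sets, 34945 were paired with 1 gene, 932 with several, 9160 with none and 64 were controls. Signals below 0.1 were set to 0.1 before logs. Where only 1 array was called present, the ratio is a bound, taken against the dim signal or, if greater, the smallest signal called present on that array. The microarrays' number limits the precision, and no test, SD or p-value was possible. The alternatives were median centring, quantile normalization, lowess centring (span 0.2), 32 units added, only genes present on both arrays, no detection filter, the median over probe sets, the authors' log ratio, and leaving out probe sets described as another gene. Analyses used Python 3.11.15, pandas 2.3.3 and statsmodels 0.14.6.

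The members and gene lists were chosen with earlier results of these data known. All members, Drd2, the measured genes of the BH4, breakdown and monoamine lists and up to 4 detected genes per marker list with the largest ratio could be named; Pdzd8, 0610012G03Rik and the markers Nrgn, Lamp5, Mef2c, Pitx3, Lmx1a, Foxa2, Chrna6 and Sncg were chosen after their values were seen. Genes left out of summed marker signals were also picked with values known. With 2 arrays a pattern is 1 ratio, so no gene was named for likeness. Symbols in the deposited descriptions were matched through RefSeq (GRCm38.p6), used for names, gene order and upstream sequence.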

Additional observations from a re-analysis of the deposited data

How the results depend on the processing

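Across 9 alternatives, 91 of 97 recomputed values for the 8 detected genes stayed within the tolerance used (1.5-fold for a gene, 0.1 on the log2 scale for the median, 1.5 times for a count) and none of the genes past 1.5-fold changed sign. The count of genes 1.5-fold apart fell from 2 to 1 with the authors' log ratio, which leaves Slc18a2, and to 1 without probe sets described as another gene, which leaves Spr; the latter alternative was chosen after seeing the data. The count of genes 2-fold apart fell from 1 to 0 with 32 units added, with quantile normalization and with the authors' log ratio. In these settings Slc18a2 read 0.99, 0.98 and 0.90, each under 2-fold. The count also fell to 0 without probe sets described as another gene, where Slc18a2 and Gch1 drop out by construction. The median of the detected genes lay between -0.11 and 0.01, Slc18a2 between 0.90 and 1.42 and Spr between -0.92 and -0.40. No paired analysis was possible because the result comes from no test and each genotype has 1 array. Of all probe sets with 1 gene in the annotation and a gene named in the description, 3.86% of 23812 disagreed, as did 2 of the 13 used here. Slc18a2 and Gch1 were near the level at which probe sets were called absent, which limits their precision.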

Other observations

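The remaining marker lists gave these values in the Drd2-/- array. All 10 measured microglia markers were detected with a median of -0.15, and Ptprc, a leukocyte surface phosphatase, was highest at 0.76. Of 11 measured interneuron markers 8 were detected with a median of -0.33. Ratios were below 0 for 6 and above 0 for 2, where 57.1% of all detected genes were below 0. Cck, a neuropeptide precursor found in interneurons and in cortical cells, read 1052.6 units in wild type against 397.7 units in Drd2-/-, a ratio of -1.40. The choline transporter gene Slc5a7 read 0.41 and Lhx8 -0.38. The authors' deposited table gives Slc5a7 0.5, called increased, and Lhx8 -0.1, called unchanged. Of 11 measured endothelial and pericyte markers 10 were detected with a median of -0.07. Their signals summed to 7341.8 units in wild type against 8229.5 units in Drd2-/-. Vwf was lowest at -0.64 and Abcb1a highest at 0.40. The authors' deposited table gives Vwf -0.1 with limits of -0.5 and 0.3, and Abcb1a 0.3 with limits of 0 and 0.5, both called unchanged. All 8 measured choroid plexus and ependymal markers were detected with a median of 0.01, 4 with ratios above 0 and 3 below 0. Their signals summed to 4621 units in wild type against 6847 units in Drd2-/-. The higher sum was carried by the thyroxine carrier gene Ttr at 0.84. Foxj1 went the other way at -0.77, as did Mia, called absent in Drd2-/-, at most -0.90. Both have a smaller log ratio of -0.4 in the authors' deposited table, called unchanged. The limits are -1 and 0.2 for Foxj1 and -0.7 and -0.1 for Mia, so the bound for Mia lies outside its limits. Kcne2, called absent in wild type at 8 units and present in Drd2-/- at 27.5 units, read at least 1.78 from these dim signals. In the authors' deposited table Kcne2 has 0.6 with limits of -1.1 and 2.3, called unchanged.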
